A study of Mus musculus with 9 samples.

Results

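The 10 genes described here encode the MHC class I antigen processing route of the mouse: the immunoproteasome subunits Psmb8, Psmb9 and Psmb10, the peptide transporter subunits Tap1 and Tap2, the loading factor tapasin (Tapbp), the light chain β2-microglobulin (B2m), the classical heavy chains H2-K1 and H2-D1, and the class I transactivator Nlrc5. They were chosen by symbol from a table of 34310 genes. All 10 had a row and passed the expression filter, a mean of at least 0.5 FPKM (fragments per kilobase of transcript, scaled to library size) over the libraries, as did 15015 genes in all. Kidneys of 9 mice were sequenced, of which 3 had received both LPS and thymosin β4 (LPS+Tβ4), 3 LPS alone (LPS) and 3 saline. LPS is bacterial lipopolysaccharide, a trigger of sepsis-like inflammation that the LPS+Tβ4 mice received too, and thymosin β4 is a small actin-binding peptide that the series' title ties to septic kidney injury. The labels name kidney as the tissue and state no dose, route, time point, strain, sex or age.

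Class I molecules display fragments of a cell's own proteins to CD8+ T cells. Proteasomes cut proteins into peptides, the TAP transporter moves the peptides into the endoplasmic reticulum, and tapasin holds an empty heavy chain with β2-microglobulin beside TAP until a peptide binds. Interferons are known to raise most of these genes, in kidney tubule cells too, and to swap the constitutive catalytic subunits of the proteasome for the immunoproteasome ones.

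The libraries held 53 to 62 M counts each, of which mitochondrial genes took 7.59% to 9.14% in LPS+Tβ4, 7.64% to 10.6% in LPS and 12.9% to 16.2% in saline kidneys. Summed over 7 proximal tubule markers, levels were 1750 to 3520 CPM (read counts scaled to library size with TMM factors) in LPS+Tβ4 kidneys, 1250 to 4490 in LPS kidneys and 10200 to 12400 in saline kidneys, and none of the 7 genes was at 0 in any group. Urothelial transcripts, from the lining of the renal pelvis, split every group: 5 markers summed to 65.9 CPM in LPS+Tβ4 replicate 3, to 55.1 CPM in the first LPS replicate, to 46.2 CPM in the second, to 87 and 74.5 CPM in saline replicates 2 and 3, and to 0.758 to 2.13 CPM in the other libraries. Nervous tissue markers (7 genes) summed to 490 to 592 CPM in LPS+Tβ4 kidneys, 29.3 to 181 CPM in LPS kidneys and 59.2 to 67.1 CPM in saline kidneys. In bulk RNA, fewer cells of a type and less RNA per cell cannot be told apart.

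Of the 10 genes, 7 lie on chromosome 17 in or near the H2 complex, in GRCm38 coordinates. Psmb9 (ENSMUSG00000096727, 34181987 to 34187764, minus strand), Tap1 (ENSMUSG00000037321, 34187553 to 34197225), Psmb8 (ENSMUSG00000024338, 34197721 to 34201454) and Tap2 (ENSMUSG00000024339, 34203527 to 34216321) stand side by side there. Tapbp (ENSMUSG00000024308, 33915899 to 33926197), H2-K1 (ENSMUSG00000061232, 33996017 to 34000347, minus strand) and H2-D1 (ENSMUSG00000073411, 35262730 to 35267499) flank that block. B2m (ENSMUSG00000060802) is on chromosome 2 at 122147686 to 122153083. On chromosome 8 are Psmb10 (ENSMUSG00000031897, 105935735 to 105938104, minus strand) and Nlrc5 (ENSMUSG00000074151, 94434356 to 94527272). Upstream sequence was matched for 8 of the 10 genes in RefSeq (GRCm38.p6), all but Tap2 and Nlrc5. RefSeq's starts can differ from the starts of the gene coordinates above, which are those of the authors' deposited data. The upstream stretches of the 3 chains and the stretch between the divergent starts of Psmb9 and Tap1, 226 bases apart, are shown because the chains on one side, and Tap1 on the other, gave unlike values in LPS+Tβ4 kidneys. Capitals mark matches to the motifs searched, and each stretch is read toward the start of the gene, the shared one toward Tap1.
H2-K1, chr17:34000348-34000597, minus strand: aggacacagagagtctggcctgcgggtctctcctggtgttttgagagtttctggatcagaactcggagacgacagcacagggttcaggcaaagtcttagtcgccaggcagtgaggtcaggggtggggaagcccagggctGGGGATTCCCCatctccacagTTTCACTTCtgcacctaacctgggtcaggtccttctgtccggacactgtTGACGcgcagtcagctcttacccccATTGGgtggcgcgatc
H2-D1, chr17:35262844-35263093, plus strand: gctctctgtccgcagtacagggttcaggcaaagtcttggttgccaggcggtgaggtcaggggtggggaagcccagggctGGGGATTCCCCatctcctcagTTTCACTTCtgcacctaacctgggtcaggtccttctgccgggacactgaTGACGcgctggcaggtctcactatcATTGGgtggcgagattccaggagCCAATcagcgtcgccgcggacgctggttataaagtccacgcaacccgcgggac
B2m, chr2:122147437-122147686, plus strand: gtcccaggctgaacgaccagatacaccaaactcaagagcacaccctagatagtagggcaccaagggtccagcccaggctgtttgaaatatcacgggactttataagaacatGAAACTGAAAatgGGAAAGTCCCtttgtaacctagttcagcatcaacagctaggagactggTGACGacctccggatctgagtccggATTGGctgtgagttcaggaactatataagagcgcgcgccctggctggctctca
Psmb9 to Tap1, chr17:34187331-34187555, plus strand: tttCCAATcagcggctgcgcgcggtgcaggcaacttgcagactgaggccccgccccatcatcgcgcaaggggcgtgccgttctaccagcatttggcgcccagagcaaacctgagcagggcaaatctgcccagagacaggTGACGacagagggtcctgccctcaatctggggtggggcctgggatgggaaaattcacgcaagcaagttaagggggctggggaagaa

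The 6 motifs were searched on both strands of the 250 bases before the start, and were chosen after these sequences had been read. The stretches shown were themselves picked by the expression values, so unlike motifs in them explain nothing. No link between a motif and a change was tested. The interferon-stimulated response element in its spaced form, a pair of GAAA blocks with 2 bases between them, was in B2m and in 2.98% of 32851 mouse promoters. Its shorter form, GAANNGAAA, was in H2-K1 and H2-D1 and in 6.31% of all promoters. A kappa-B consensus was in B2m, H2-K1 and H2-D1 (3.9% of all promoters), and its matches in H2-K1 and H2-D1 overlap themselves, on both strands. TGACG, the core of the X2 box that NLRC5-containing complexes are known to use, was in Tap1, Psmb9, B2m, H2-K1 and H2-D1 (17.8% of all). CCAAT, the Y box, was in those 5 genes and in Tapbp (33.8% of all), and the gamma-activated site TTCNNNGAA was in Psmb8 (7.02% of all). Psmb10 held 0 of the 6 motifs, and for Tap2 and Nlrc5 there was no sequence to search. The shared stretch gives Tap1 and Psmb9 the same TGACG and the same CCAAT, 86 and 222 bases before the Tap1 start. In the chains the 2 matches are placed otherwise, at 41 and 16 bases in H2-K1 and 78 and 53 in B2m. H2-D1 has them at 101 and 76, with a second CCAAT at 53. Matches this short do not show that a working X2 or Y box is present. Over 190 aligned upstream bases, H2-K1 and H2-D1 had the same base at 166 (87.4%).

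LPS raised all 10 genes. In edgeR's quasi-likelihood test with Benjamini-Hochberg adjustment, they were higher in LPS than in saline kidneys with a median log2 change of 3.56, where 20.9% of the 15015 tested genes were called higher and the median over all of them was 0.02. The LPS and saline ranges of all 10 stood apart with LPS above, as they did for 25.8% of tested genes. Between LPS+Tβ4 and LPS kidneys the calls split. Of the 10 genes, 4 (Tap1, Tap2, Psmb10 and Nlrc5) were lower than in LPS kidneys and 0 were higher, with a median of -0.89, where 2.33% of tested genes were called lower and 4.5% higher and the median over all was -0.01. At an unadjusted p under 0.05, 6 were lower and 0 higher, against 11.5% and 13.5% of tested genes. DESeq2 called 6 lower and 0 higher, against 7.14% and 9.12% of tested genes, and limma on log2(FPKM + 1) called 2 lower and 0 higher, against 1.67% and 5.05%. An edgeR fit of only the 6 libraries compared called 0 of the 10, and 3 of the 15015 tested genes. The CPM ranges of LPS+Tβ4 and LPS stood apart for 5 of the 10, all with LPS+Tβ4 below, as they did for 11.9% of tested genes, and for 0 with LPS+Tβ4 above (14.4% of tested genes). On the FPKM scale 4 stood apart, Tap1, Tap2 and Nlrc5 below (9.36% of tested genes) and H2-K1 above (15.3%). B2m, H2-K1 and H2-D1 were not called.

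**Figure D1:**
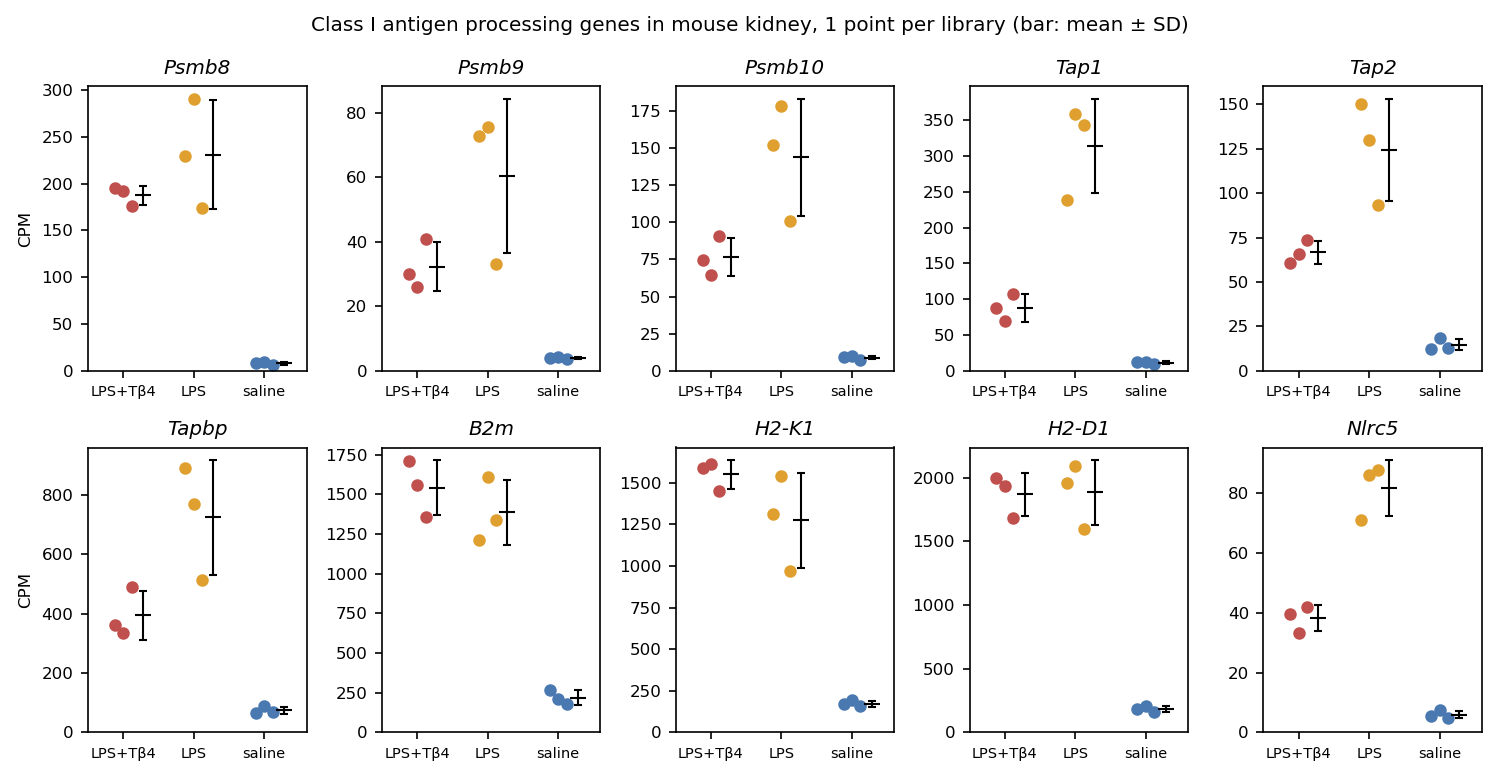
CPM (y axis, from 0, a scale per gene) of the 10 class I antigen processing genes in LPS+Tβ4, LPS and saline kidneys, with 1 point per library and a bar for the mean ± SD (n = 3). Saline points lie near the bottom of every panel, and in the LPS+Tβ4 kidneys Tap1 had at most 107 CPM, against 239 CPM or more in LPS kidneys, while the 3 chains overlapped between those groups.

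The immunoproteasome subunits replace the constitutive catalytic subunits and change which peptide bonds are cut. Psmb8 (β5i) stood at 195, 192 and 176 CPM in LPS+Tβ4 kidneys, at 229, 290 and 174 CPM in LPS kidneys and at 7.95, 9.59 and 6.23 CPM in saline kidneys. LPS replicate 3 was as low as the LPS+Tβ4 kidneys, and every LPS-treated library was far above every saline one. Psmb8 rose 29.1-fold with LPS (log2 change 4.86 ± 0.25 SE, adjusted p = 2.7e-05), the largest fold of the 10 genes in that comparison, and its LPS+Tβ4 to LPS change was -0.30 ± 0.21 (95% interval -0.79 to 0.19, adjusted p = 0.42).

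Psmb9 (β1i) had 30.2, 26.1 and 40.8 CPM in LPS+Tβ4 kidneys, 72.7, 75.7 and 33 CPM in LPS kidneys and 4, 4.41 and 3.77 CPM in saline kidneys. LPS replicate 3 fell inside the LPS+Tβ4 range, and the other LPS libraries lay above it. That replicate was also the LPS library poor in urothelial transcripts, at 0.93 CPM against 55.1 and 46.2 CPM in the others. It differed from them in proximal tubule markers (4490 against 1250 and 2360 CPM) and nervous tissue markers (29.3 against 181 and 115 CPM) as well. Whether these differences bear on Psmb9 was not tested. The rise with LPS was 14.9-fold (3.90 ± 0.34, adjusted p = 0.00013), and LPS+Tβ4 against LPS gave -0.90 ± 0.31 (interval -1.60 to -0.20, adjusted p = 0.11), which was called without LPS replicate 3 (adjusted p = 0.035) and by DESeq2 (adjusted p = 0.039). Psmb10 (β2i) had 74.8, 64.5 and 90.5 CPM in LPS+Tβ4 kidneys, 152, 178 and 101 CPM in LPS kidneys and 9.35, 9.78 and 7.67 CPM in saline kidneys. Here the LPS+Tβ4 and LPS ranges stood just apart in CPM and overlapped in FPKM. It rose 16.1-fold with LPS (4.01 ± 0.25, adjusted p = 4.3e-05) and was 0.533-fold as high in LPS+Tβ4 as in LPS kidneys (-0.91 ± 0.22, adjusted p = 0.048). That call was lost when any saline library was left out, or replicate 1 or 2 of either LPS-treated group (adjusted p = 0.054 to 0.2). A fit of the 6 libraries compared lost it too (adjusted p = 0.14).

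TAP is a dimer of Tap1 and Tap2. Tap1 showed the largest difference of the 10 genes between LPS+Tβ4 and LPS. It had 87.3, 69.2 and 107 CPM in LPS+Tβ4 kidneys, 239, 359 and 344 CPM in LPS kidneys and 12.1, 13 and 10.1 CPM in saline kidneys. The 3 groups did not overlap, with the LPS+Tβ4 kidneys between the others. Tap1 rose 26.7-fold with LPS (4.74 ± 0.25, adjusted p = 2.7e-05), and in LPS+Tβ4 kidneys it was 0.28-fold as high as in LPS kidneys (-1.83 ± 0.22, interval -2.33 to -1.34, adjusted p = 0.0095). The call was kept with each of the 9 libraries left out in turn (-2.03 to -1.69, adjusted p = 0.0023 to 0.043), and was lost in a fit of the 6 libraries compared (adjusted p = 0.065).

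Tap2 had 60.7, 65.9 and 73.4 CPM in LPS+Tβ4 kidneys, 150, 130 and 93.4 CPM in LPS kidneys and 12.6, 18.3 and 13.1 CPM in saline kidneys. Again the 3 groups were apart, by less than for Tap1. The changes were 3.08 ± 0.22 for LPS against saline (8.47-fold, adjusted p = 7.5e-05) and -0.90 ± 0.21 for LPS+Tβ4 against LPS (0.536-fold, adjusted p = 0.042). The call between LPS+Tβ4 and LPS was lost without any saline library, LPS replicate 2 or any LPS+Tβ4 library (adjusted p = 0.053 to 0.17). A fit of the 6 libraries compared lost it too (adjusted p = 0.11). Tapbp had 362, 334 and 488 CPM in LPS+Tβ4 kidneys, 890, 768 and 513 CPM in LPS kidneys and 66.7, 87.7 and 67.1 CPM in saline kidneys. LPS+Tβ4 replicate 3 (65.9 CPM of urothelial and 1750 CPM of proximal tubule markers) came close to LPS replicate 3 (0.93 and 4490 CPM). Tapbp rose 9.81-fold with LPS (3.29 ± 0.27, adjusted p = 9e-05), and its LPS+Tβ4 to LPS change of -0.87 ± 0.25 (interval -1.43 to -0.31) did not pass (adjusted p = 0.069). It passed without LPS replicate 3 (adjusted p = 0.048), by DESeq2 (adjusted p = 0.0066) and with the urothelial sum as a covariate (adjusted p = 0.044), where the change was smaller, at -0.72.

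The chains that form the class I molecule itself rose with LPS and stayed up. B2m, the light chain of all class I molecules, had 1710, 1560 and 1360 CPM in LPS+Tβ4 kidneys, 1210, 1610 and 1340 CPM in LPS kidneys and 269, 210 and 179 CPM in saline kidneys. The LPS+Tβ4 and LPS libraries were interleaved. B2m rose 6.33-fold with LPS (2.66 ± 0.22, adjusted p = 0.00011), and LPS+Tβ4 against LPS gave 0.15 ± 0.21 (interval -0.33 to 0.63, adjusted p = 0.7). H2-K1 had 1590, 1610 and 1450 CPM in LPS+Tβ4 kidneys, 1310, 1540 and 971 CPM in LPS kidneys and 168, 192 and 157 CPM in saline kidneys. Its lowest LPS-treated library was LPS replicate 3. The changes were 2.88 ± 0.22 with LPS (7.37-fold, adjusted p = 8.2e-05) and 0.29 ± 0.20 for LPS+Tβ4 against LPS (interval -0.17 to 0.74, adjusted p = 0.42).

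H2-D1 had 2000, 1930 and 1680 CPM in LPS+Tβ4 kidneys, 1960, 2090 and 1600 CPM in LPS kidneys and 183, 209 and 163 CPM in saline kidneys. The LPS+Tβ4 range lay inside the wider LPS range. It rose 10.2-fold with LPS (3.34 ± 0.21, adjusted p = 4.3e-05), with -0.01 ± 0.19 for LPS+Tβ4 against LPS (interval -0.44 to 0.42, adjusted p = 0.99). Reads that fit several heavy chains could move between them, so 21 heavy chain genes were also summed and tested as 1 feature. The sum changed by 2.89 ± 0.23 with LPS (adjusted p = 8.8e-05) and by 0.00 ± 0.21 between LPS+Tβ4 and LPS.

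Nlrc5, the transactivator that drives class I genes, is the gene whose LPS libraries lay closest together relative to their mean. It had 39.7, 33.3 and 41.9 CPM in LPS+Tβ4 kidneys, 71.2, 86.3 and 88 CPM in LPS kidneys and 5.52, 7.42 and 4.97 CPM in saline kidneys. The groups did not overlap. Nlrc5 rose 13.7-fold with LPS (3.78 ± 0.20, adjusted p = 2.7e-05) and was 0.468-fold as high in LPS+Tβ4 as in LPS kidneys (-1.10 ± 0.18, interval -1.50 to -0.69, adjusted p = 0.018). The second call was lost without LPS replicate 2 or LPS+Tβ4 replicate 1 or 2 (adjusted p = 0.059 to 0.089). A fit of the 6 libraries compared lost it too (adjusted p = 0.065).

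**Figure D2:**
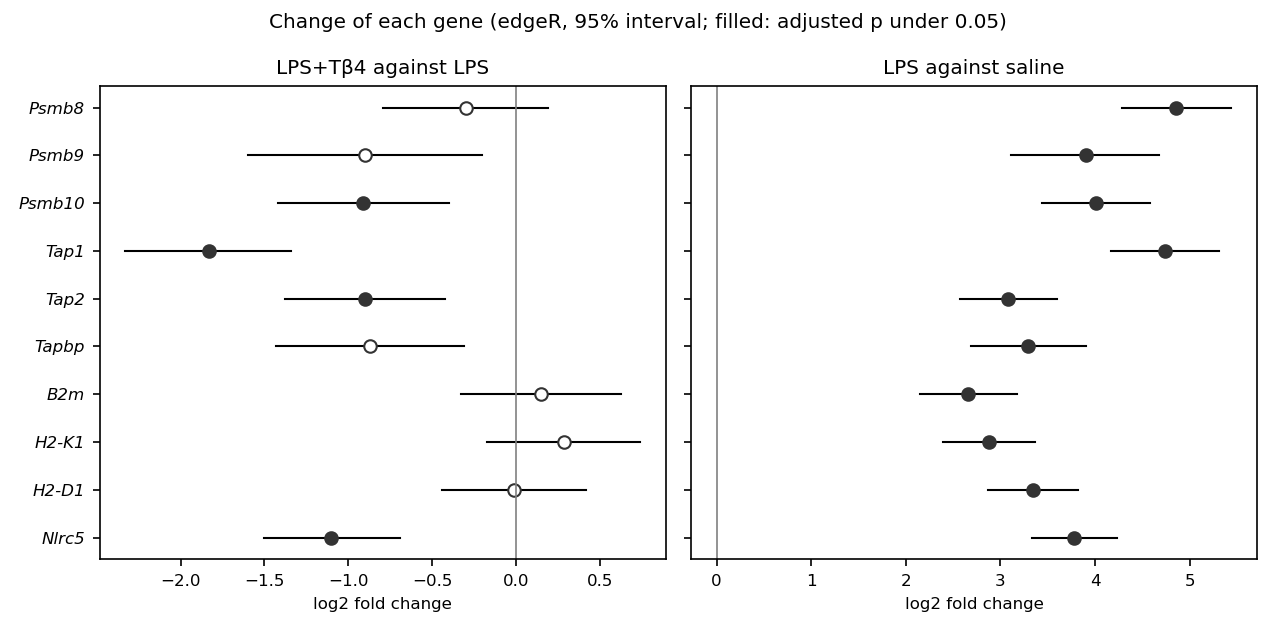
Log2 fold changes of the 10 genes with 95% intervals (x axis), LPS+Tβ4 against LPS on the left and LPS against saline on the right, from edgeR over all 9 libraries. Filled points passed an adjusted p of 0.05: all 10 on the right, and Psmb10, Tap1, Tap2 and Nlrc5 on the left, where the intervals of Psmb8, B2m, H2-K1 and H2-D1 cross 0.

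Against saline, LPS+Tβ4 kidneys were higher for all 10 genes, with a median of 2.95, where 12.3% of tested genes were called higher. The changes ran from 2.18 ± 0.22 for Tap2 (4.54-fold, adjusted p = 0.00051) to 4.56 ± 0.25 for Psmb8 (23.6-fold, adjusted p = 8.8e-05). This comparison shares its libraries with the others and is no separate evidence. Measured on mean CPM, the LPS+Tβ4 excess over saline was 25.2% of the LPS excess for Tap1, 42.6% for Nlrc5, 47.4% for Tap2, 49.4% for Tapbp, 50.1% for Psmb9 and 50.2% for Psmb10. It was 80.5% for Psmb8, 99.4% for H2-D1, 113% for B2m and 125% for H2-K1.

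Per transcript length, the chains were by far the most abundant of the 10 in every group. In FPKM, B2m averaged 1690 ± 72.3 in LPS+Tβ4, 1460 ± 162 in LPS and 207 ± 36 in saline kidneys (SD, n = 3 each). H2-D1 averaged 681 ± 9.24 FPKM in LPS+Tβ4, 668 ± 136 in LPS and 58.9 ± 10.9 in saline kidneys. At the other end, Nlrc5 averaged 4.27 ± 0.759 FPKM in LPS+Tβ4, 8.72 ± 0.0947 in LPS and 0.574 ± 0.164 in saline kidneys. In LPS kidneys the mean FPKM fell in the order B2m, H2-D1, H2-K1, Tapbp, Psmb10, Psmb8, Tap1, Tap2, Psmb9 and Nlrc5, and the neighbours Psmb10 (77.4 ± 24.2), Psmb8 (62.5 ± 17.1) and Tap1 (51.5 ± 6.03) differed by less than their spread. In LPS+Tβ4 kidneys Psmb8 (52.2 ± 1.22) and Psmb10 (42.7 ± 10.6) likewise differed by less than their spread, as did Tap2 (16.7 ± 2.97) and Tap1 (15.3 ± 4.44), whereas in LPS kidneys Tap1 was above Tap2 (30.5 ± 10.2).

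Ratios within a library do not depend on its scaling, so 8 FPKM ratios were compared between LPS+Tβ4 and LPS, chosen after the values had been seen. With 3 libraries against 3 the smallest 2-sided p of the exact permutation test is 0.1, so none could pass. After Benjamini-Hochberg adjustment over the 8 the lowest value was 0.2. The ratio of Tap1 to H2-K1 was 0.0295, 0.0231 and 0.0396 in LPS+Tβ4 kidneys, 0.098, 0.125 and 0.19 in LPS kidneys and 0.0384, 0.0363 and 0.0344 in saline kidneys. LPS kidneys stood above both other groups, and the LPS+Tβ4 range enclosed the saline one (LPS+Tβ4 minus LPS -2.14 on the log2 scale, exact p = 0.1). Tapbp to H2-K1 averaged 0.209 ± 0.0558 in LPS+Tβ4, 0.462 ± 0.0791 in LPS and 0.346 ± 0.0246 in saline kidneys (SD, n = 3 each; exact permutation p = 0.1 for LPS+Tβ4 against LPS). Tap1 to Tap2 averaged 0.909 ± 0.159 in LPS+Tβ4, 1.85 ± 0.724 in LPS and 0.56 ± 0.0883 in saline kidneys, and H2-D1 to H2-K1 averaged 1.37 ± 0.0596 in LPS+Tβ4, 1.71 ± 0.162 in LPS and 1.22 ± 0.0368 in saline kidneys. Both had LPS+Tβ4 below LPS without overlap and an exact permutation p of 0.1. B2m to the sum of H2-K1 and H2-D1 was 1.43 ± 0.0722 in LPS+Tβ4, 1.41 ± 0.234 in LPS and 1.96 ± 0.415 in saline kidneys (SD, n = 3 each; exact permutation p = 0.9 for LPS+Tβ4 against LPS).

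The constitutive proteasome subunits are the partners that Psmb8, Psmb9 and Psmb10 replace: Psmb5, Psmb6 and Psmb7. They were not called in LPS against saline (0.38, 0.39 and -0.13, adjusted p = 0.12, 0.088 and 0.62) or in LPS+Tβ4 against LPS (0.37, 0.10 and 0.28, adjusted p = 0.24, 0.76 and 0.4). Without LPS replicate 1, Psmb5 and Psmb6 were called higher in LPS than in saline kidneys (0.53 and 0.57, adjusted p = 0.04 and 0.014), and they were so without LPS+Tβ4 replicate 3 (adjusted p = 0.035 and 0.048) and by limma on all 9 libraries (adjusted p = 0.019 and 0.014) too. Psmb8 to Psmb5 was 0.359 ± 0.0644 in LPS+Tβ4, 0.561 ± 0.134 in LPS and 0.0247 ± 0.00466 in saline kidneys (SD, n = 3 each). Psmb9 to Psmb6 was 0.143 ± 0.0544 in LPS+Tβ4, 0.283 ± 0.127 in LPS and 0.0243 ± 0.00281 in saline kidneys. Psmb10 to Psmb7 was 1.27 ± 0.483 in LPS+Tβ4, 2.87 ± 1.02 in LPS and 0.157 ± 0.0213 in saline kidneys. Per length, Psmb10 was above its partner in every LPS library and below it in every saline one. Between LPS+Tβ4 and LPS each of these 3 ratios had an exact permutation p of 0.2 (0.229 adjusted), with overlapping ranges.

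**Figure D3:**
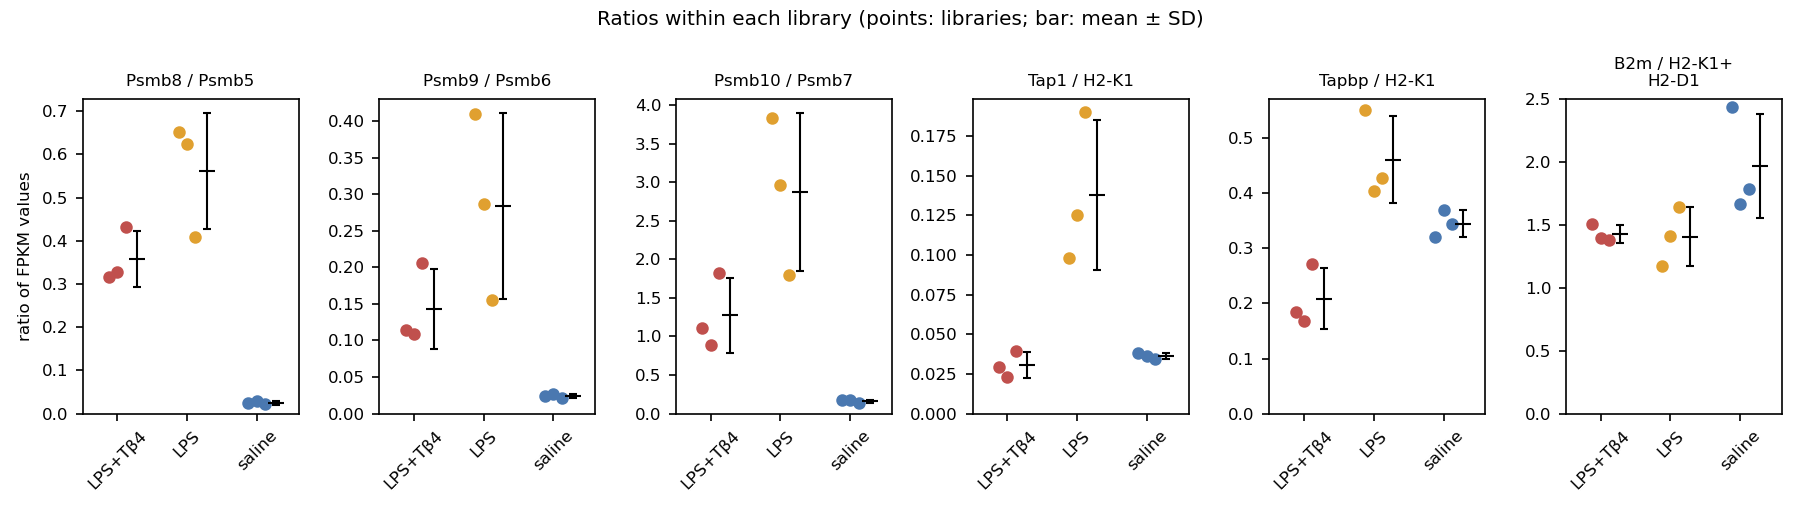
Of the 8 FPKM ratios, 6 are plotted within each library (y axes, from 0) in LPS+Tβ4, LPS and saline kidneys, 1 point per library, with bars for the mean ± SD (n = 3). Tap1 to H2-K1 is 0.0231 to 0.0396 in LPS+Tβ4 kidneys, 0.098 to 0.19 in LPS kidneys and 0.0344 to 0.0384 in saline kidneys, while B2m to the 2 heavy chains overlaps between LPS+Tβ4 and LPS.

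Of 74 other genes listed for the class I route, 63 were tested. Between LPS and saline kidneys 34 were higher and 5 lower (median 0.54, against 20.9% and 22.2% of all tested genes), and between LPS+Tβ4 and LPS kidneys 2 were higher and 5 lower (median -0.13, against 4.5% and 2.33%). A fit of only the 6 LPS+Tβ4 and LPS libraries called 0 of the 63, and 3 of the 15015 tested genes. Among 14 genes of peptide supply, 4 were higher and 2 lower in LPS than in saline kidneys. The interferon-inducible proteasome activator subunits Psme1 and Psme2 rose by 2.64 ± 0.16 and 2.79 ± 0.33 (adjusted p = 4.3e-05 and 4e-04), while Psme4, another proteasome activator, changed by -0.86 and the peptidase Blmh by -0.72 (adjusted p = 0.0046 and 0.003). In LPS+Tβ4 against LPS kidneys edgeR called 0 of the 14, with 2 higher and 2 lower at an unadjusted p under 0.05, DESeq2 called 1 higher and 1 lower, and limma 0. Of all tested genes, 13.5% were higher and 11.5% lower at that p, and DESeq2 called 9.12% higher and 7.14% lower. The counts of the 14 are near these shares. Psme2 had 109, 109 and 159 CPM in LPS+Tβ4 kidneys, 283, 281 and 125 CPM in LPS kidneys and 32.9, 36.8 and 29.7 CPM in saline kidneys. Like Psmb9, it was low in LPS replicate 3, the LPS library poor in urothelial and richest in proximal tubule transcripts. Its LPS+Tβ4 to LPS change of -0.87 was not called (adjusted p = 0.12), but was without that library (adjusted p = 0.037) and by DESeq2 (adjusted p = 0.043).

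Of 8 genes of loading and trimming in the endoplasmic reticulum, 2 were higher and 1 lower in LPS than in saline kidneys. Of all tested genes, 20.9% were higher and 22.2% lower, so these counts are no result about the list. Tapbpl, the tapasin-related editor of bound peptides, rose by 2.41 ± 0.15 (adjusted p = 4.3e-05), and Erap1, the aminopeptidase that trims peptides to length, by 1.29 ± 0.12 (adjusted p = 0.00018). Ganab, a glucosidase of glycoprotein folding, fell by 0.47 on the log2 scale (adjusted p = 0.029). That call was lost without any saline library, without LPS+Tβ4 replicate 3 and without LPS replicate 2 or 3 (adjusted p = 0.064 to 0.13). The chaperone calnexin (Canx) was not called, at -0.48 (adjusted p = 0.074), though it was without LPS replicate 1 (adjusted p = 0.0077) and by DESeq2 (adjusted p = 0.043). Between LPS+Tβ4 and LPS, edgeR called 0 of the 8, with 1 higher and 1 lower at an unadjusted p under 0.05, and DESeq2 called 1 lower and limma 0. Of all tested genes, 13.5% were higher and 11.5% lower at that p, and DESeq2 called 7.14% lower. Tapbpl was at -0.49 ± 0.15 (adjusted p = 0.083) and the chaperone calreticulin (Calr) at 0.62 ± 0.24 (adjusted p = 0.15). Calr was called higher without LPS replicate 1 (adjusted p = 0.017).

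Of 16 other class I and class I-like chains, 9 were higher in LPS than in saline kidneys, against 20.9% of all tested genes. The nonclassical chains H2-Q4 and H2-T23, which presents peptides of class I leaders to NK cell receptors, rose by 3.87 ± 0.19 and 3.29 ± 0.21 (adjusted p = 2.7e-05 and 4.3e-05). H2-T22 rose by 1.69 ± 0.23 and H2-Q2 by 2.58 ± 0.37 (adjusted p = 0.00079 and 0.001). Within this list LPS+Tβ4 and LPS kidneys differed in both directions, with 1 gene higher and 1 lower (2 and 1 by DESeq2 and by limma). Of all tested genes, edgeR called 4.5% higher and 2.33% lower, DESeq2 9.12% and 7.14%, and limma 5.05% and 1.67%. H2-Q4 had 179, 168 and 151 CPM in LPS+Tβ4 kidneys, 261, 401 and 348 CPM in LPS kidneys and 22.4, 25.7 and 21.2 CPM in saline kidneys. H2-Q7 had 73.8, 80.8 and 58.1 CPM in LPS+Tβ4 kidneys, 32.8, 39.6 and 22.6 CPM in LPS kidneys and 25.5, 20.5 and 20.6 CPM in saline kidneys. LPS+Tβ4 was below LPS for H2-Q4 and above it for H2-Q7, without overlap. The changes were -1.02 ± 0.17 for H2-Q4 (adjusted p = 0.019) and 1.16 ± 0.22 for H2-Q7 (adjusted p = 0.026), and both calls were lost without LPS replicate 2 or LPS+Tβ4 replicate 1 or 2 (adjusted p = 0.053 to 0.12). The Q-region genes are near copies of one another, and how the counting split their reads is not given in the sources used here, so the values of single members are uncertain. H2-T23 did not follow H2-Q4, at -0.13 ± 0.19 (adjusted p = 0.72).

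Of 18 transcription factors of class I genes, 14 were higher and 2 lower in LPS than in saline kidneys, against 20.9% and 22.2% of all tested genes. Irf7, a factor of the interferon response, rose by 4.74 ± 0.29 (adjusted p = 4.3e-05), and Irf1, which binds the interferon response elements of class I promoters, by 3.56 ± 0.32 (adjusted p = 0.00013). Stat2 and Irf9, subunits of the interferon-activated factor ISGF3, rose by 3.06 ± 0.24 and 2.15 ± 0.13 (adjusted p = 8.6e-05 and 4.3e-05). In LPS+Tβ4 against LPS kidneys 4 of the 18 were lower (Stat2, Rfx5, Irf9 and Irf1) and 1 was higher (Ciita). At an unadjusted p under 0.05, 9 were lower and 1 higher, DESeq2 called 7 lower and 1 higher, and limma 1 lower and 1 higher. Of all tested genes, edgeR called 2.33% lower and 4.5% higher, with 11.5% and 13.5% at the unadjusted p. DESeq2 called 7.14% of them lower and 9.12% higher, and limma 1.67% and 5.05%. Stat2 had 61.8, 56.2 and 93.2 CPM in LPS+Tβ4 kidneys, 193, 221 and 143 CPM in LPS kidneys and 23.3, 23 and 20.6 CPM in saline kidneys. Irf1 had 65.8, 55.2 and 97.3 CPM in LPS+Tβ4 kidneys, 172, 189 and 137 CPM in LPS kidneys and 10.8, 19.9 and 11.5 CPM in saline kidneys. For both genes the LPS+Tβ4 kidneys lay between the other groups without overlap, with replicate 3 the highest of them. The LPS+Tβ4 to LPS changes were -1.40 ± 0.23 for Stat2 (adjusted p = 0.017), -1.19 ± 0.29 for Irf1 (adjusted p = 0.048) and -0.55 ± 0.13 for Irf9 (adjusted p = 0.042).

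Rfx5, the subunit of the complex that binds X boxes, was at -0.64 ± 0.14 (adjusted p = 0.036) in LPS+Tβ4 against LPS. Ciita, the class II transactivator and a relative of Nlrc5, ran the other way, with 26.1, 46.9 and 25 CPM in LPS+Tβ4 kidneys, 10.6, 9.46 and 12.1 CPM in LPS kidneys and 3.89, 2.88 and 2.42 CPM in saline kidneys. Every LPS+Tβ4 library was above every LPS one (1.61 ± 0.29, adjusted p = 0.022). Macrophage and dendritic cell markers summed to 90.2 to 107 CPM in LPS+Tβ4, 61.1 to 78.1 in LPS and 56.5 to 107 in saline kidneys. Whether these cells bear on Ciita was not tested. The calls of Irf1, Irf9 and Rfx5 were each lost in 7 of the 9 fits that left out 1 library. For all 3 genes these included the fits without LPS replicate 2 or 3, LPS+Tβ4 replicate 1 or 2 and saline replicate 1 or 3, and the seventh was without LPS replicate 1 for Irf1 and without saline replicate 2 for Irf9 and Rfx5. Adjusted p reached 0.19 for Irf1, 0.18 for Irf9 and 0.16 for Rfx5. That of Stat2 was lost without LPS replicate 2 or LPS+Tβ4 replicate 1 or 2 (adjusted p = 0.065 to 0.085), and that of Ciita without replicate 2 of either group (adjusted p = 0.082 and 0.084).

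Of 7 tested interferon receptor and kinase genes, 5 were higher in LPS than in saline kidneys, against 20.9% of all tested genes. The receptor chains Ifngr2, Ifnar2, Ifnar1 and Ifngr1 rose by 1.47, 1.43, 1.22 and 1.02 (adjusted p = 0.00044, 0.00048, 8e-04 and 0.0069). In LPS+Tβ4 against LPS kidneys edgeR called 0 of the 7, with 3 lower and 0 higher at an unadjusted p under 0.05, with DESeq2 calling 3 lower and limma 0. Of all tested genes, 11.5% were lower and 13.5% higher at that p, and DESeq2 called 7.14% lower. Ifnar1 was at -0.62 (adjusted p = 0.062), and was called lower without LPS+Tβ4 replicate 3 (adjusted p = 0.035) and by DESeq2 (adjusted p = 0.0096). The interferon genes were near the detection limit and were not tested. Ifng had 4, 4 and 4 counts in LPS+Tβ4 kidneys, 0, 4 and 9 counts in LPS kidneys and 0 in each saline kidney. Ifnb1 had 0, 0 and 4 counts in LPS+Tβ4 kidneys, 0, 0 and 3 counts in LPS kidneys and 0 in each saline kidney. A difference in either was not detectable at this depth.

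**Figure D4:**
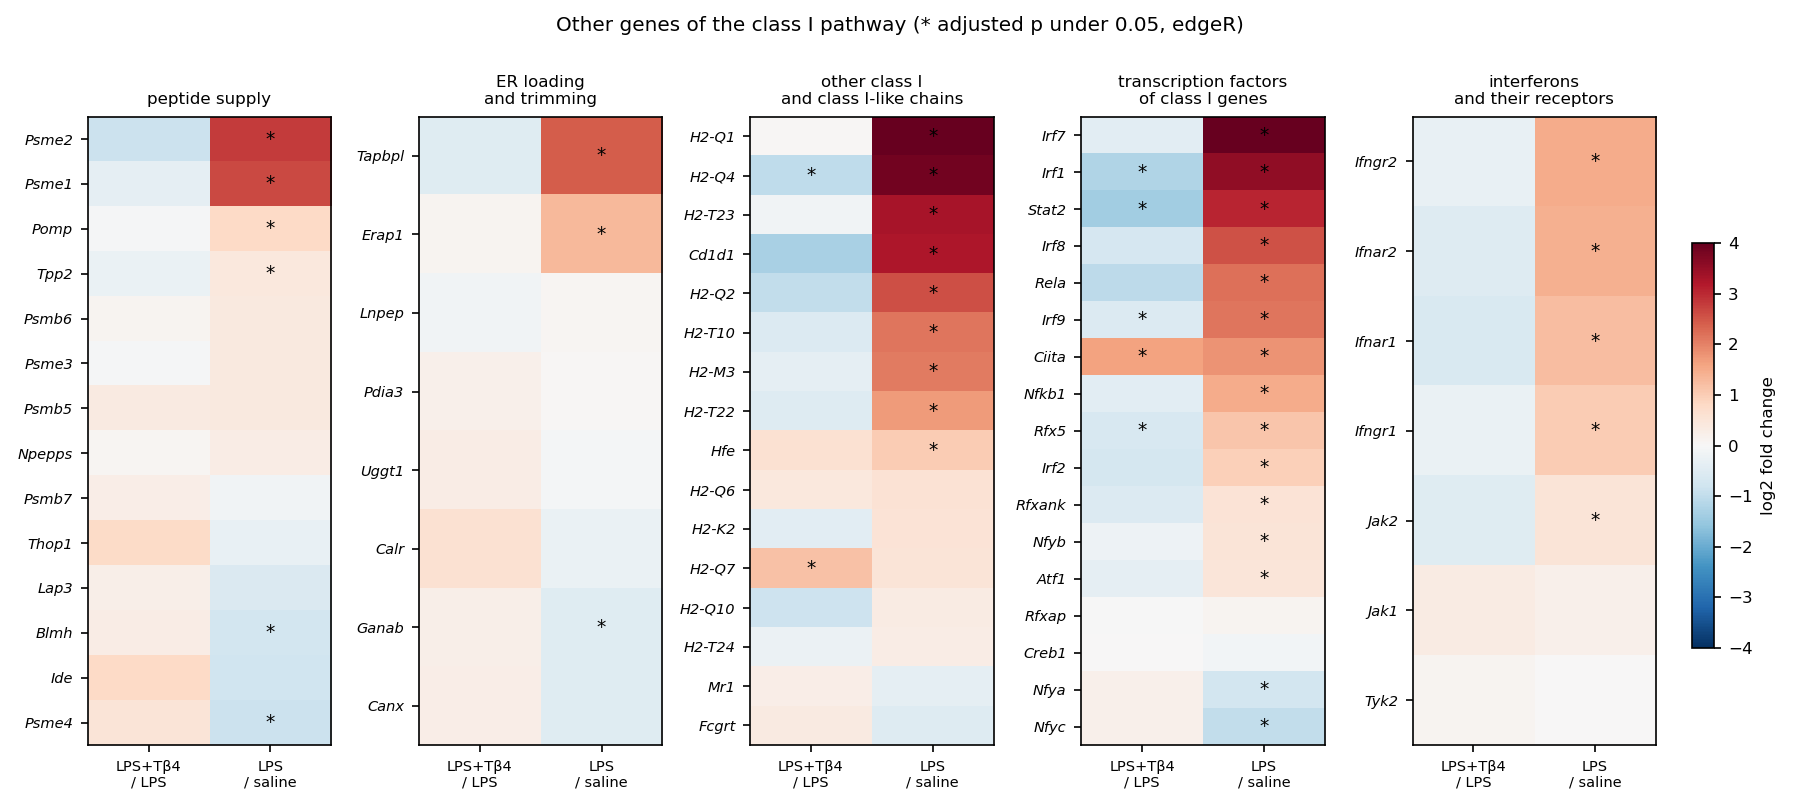
Log2 fold changes (colour, clipped at -4 and 4) of 62 of the 63 other tested genes of the class I route in 5 lists, with LPS+Tβ4 against LPS in the left column and LPS against saline in the right column of each panel. Stars mark an adjusted p under 0.05 in edgeR: 38 in the right columns and 7 in the left ones, where Ciita and H2-Q7 are higher and H2-Q4, Stat2, Rfx5, Irf9 and Irf1 lower.

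The genes most like the 10 in pattern were sought among 11383 named genes with a mean of at least 1 FPKM, by the root-mean-square difference of their centred log2(CPM + 1) over the 9 libraries from the median profile of the 10. Sbno2 (0.23), Mvp (0.24), Mlkl (0.25), Ifitm3 (0.28) and Irf1 (0.30) were nearest, where the median gene was at 1.53. The 10 genes themselves were 0.14 (Psmb9) to 0.74 (Psmb8) from that profile, with Tap1 at 0.62 and B2m at 0.49. Mvp, the major vault protein gene, had 231, 183 and 222 CPM in LPS+Tβ4 kidneys, 335, 371 and 331 CPM in LPS kidneys and 30, 41.1 and 38.9 CPM in saline kidneys. Like Tap1, it held the 3 groups apart (-0.70 ± 0.16 in LPS+Tβ4 against LPS, adjusted p = 0.039). It was picked by these same values, so this is no separate evidence. In that comparison Irf1 was called lower too, while Sbno2, Mlkl and Ifitm3 were not called (adjusted p = 0.099, 0.059 and 0.25). These points share libraries and scaling, and the likeness is a description.

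Markers of other cell types moved between the groups as well. T and NK cell markers (14 genes) summed to 6 to 6.82 CPM in LPS+Tβ4, 3.2 to 8.73 in LPS and 5.49 to 9.86 in saline kidneys, and Cd8b1 was at 0 in all LPS+Tβ4 kidneys. Of the 4 that were tested, the granzymes Gzma and Gzmb were higher in LPS than in saline kidneys (2.53 and 4.80, adjusted p = 0.0043 and 0.0051). Of all tested genes, 20.9% were called higher there. These granzymes averaged 0.164 and 0.047 FPKM in saline kidneys and passed the filter of 0.5 FPKM only through the LPS-treated groups. Their rise is thus no result about T and NK cells. Trbc1 and Trbc2, T cell receptor genes, ran the other way and were not called (-0.62 and -2.02, adjusted p = 0.42 and 0.13). The remaining markers of this list were below the expression filter and were not tested. Among them, Cd8a averaged 2.47 CPM in saline and 0.395 in LPS kidneys, and Cd4 0.627 and 0.0915. Prf1 went the other way, at 0.152 and 0.311 CPM. B cell markers (5 genes) summed to 0.823 to 4 CPM in LPS+Tβ4, 1.04 to 7.3 in LPS and 2.72 to 4.41 in saline kidneys, and Ms4a1 was at 0 in all LPS kidneys. Macrophage and dendritic cell markers (11 genes) summed to 90.2 to 107 CPM in LPS+Tβ4, 61.1 to 78.1 in LPS and 56.5 to 107 in saline kidneys. Of 8 tested, Cd68 and Ly6c2 were higher in LPS than in saline kidneys (3.44 and 2.09) and Csf1r and Adgre1 lower (-1.79 and -1.28), against 20.9% and 22.2% of all tested genes. Between LPS+Tβ4 and LPS edgeR called 0 of the 8, with 5 higher and 0 lower at an unadjusted p under 0.05, and Cd68 was at -0.55 (adjusted p = 0.35). At that unadjusted p, 13.5% of all tested genes were higher and 11.5% lower. Genes of all leukocytes (4 genes) gave 38.7 to 47.7 CPM in LPS+Tβ4, 15.6 to 36 in LPS and 24.6 to 35.6 in saline kidneys. The macrophage and leukocyte sums were both higher in LPS+Tβ4 than in LPS kidneys without overlap, and the LPS range did not exceed the saline one, apart from 36 CPM in LPS replicate 3. Neutrophil markers (7 genes) summed to 21.9 to 65.3 CPM in LPS+Tβ4, 19.7 to 41.6 in LPS and 0.643 to 2.53 in saline kidneys, where Ly6g was at 0. Endothelial markers (9 genes) summed to 186 to 379 CPM in LPS+Tβ4, 206 to 444 in LPS and 301 to 381 in saline kidneys. Podocyte markers (4 genes) summed to 241 to 339 CPM in LPS+Tβ4, 101 to 200 in LPS and 313 to 483 in saline kidneys, apart between LPS+Tβ4 and LPS. Markers of the thick ascending limb and collecting duct (6 genes) summed to 999 to 2630 CPM in LPS+Tβ4, 539 to 3060 in LPS and 2510 to 4020 in saline kidneys. Of these 6, 4 were lower in LPS than in saline kidneys, and Atp6v1b1, a proton pump subunit of intercalated cells, was higher in LPS+Tβ4 than in LPS kidneys (2.19 ± 0.32, adjusted p = 0.015). Of all tested genes, 22.2% were called lower in the first comparison and 4.5% higher in the second. The part of any of these cell types, or of the urothelial or nervous tissue transcripts, in the class I differences was not tested. With the urothelial sum as a covariate, 5 of the 10 class I genes were called lower in LPS+Tβ4 than in LPS kidneys and 0 higher, against 2.99% and 4.52% of tested genes in that fit. Such counts of calls do not measure what the urothelium contributes.

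Exact sharing of sequence with other genes was sought for all 10. For 9 of them, no stretch of 150 bases in the longest GENCODE M21 coding transcript was found in a transcript of another gene. For H2-D1, 1.79% of such stretches were also in H2-Q1. Stretches with a few mismatches were not counted and the strain is not stated, so reads could still move between heavy chains. Tap1 and Psmb9 overlap by 212 bases on opposite strands, and the counts of Tap1 were 413% of those of Psmb9. Tapbp shares 3422 bases with Zbtb22 on the same strand, whose counts were 6.68% of those of Tapbp. Nlrc5 overlaps 9330175E14Rik on the opposite strand, with 12.9% as many counts. The library kit marks strand, but the strand setting of the counting is not given in the sources used here.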

How the data were processed

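Poly(A) RNA of fresh kidneys (3 mice per group) was made into dUTP strand-specific libraries, per the labels' protocols and design text. The authors' deposited table holds raw counts and FPKM values of 34310 genes in 9 libraries (53 to 62 M counts each). The submitters' processing notes name cutadapt 1.9, HISAT2 2.2.1, StringTie 2.1.6, DESeq2, edgeR and GRCm38. The sources used here do not give the program that counted reads, its strand setting or its annotation. The test was edgeR 4.0.16 (R 4.3.3) on counts with TMM scaling and a quasi-likelihood fit of all 9 libraries without covariates, 2-sided tests, Benjamini-Hochberg adjustment over the 15015 genes whose mean FPKM reached 0.5, threshold 0.05. An SE is the log2 change divided by the square root of F. The chain was tested on simulated data.

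Named genes were the 10 members, Psmb5 to Psmb7, Irf1, Ifng, Ifnb1, up to 4 genes with the smallest adjusted p per list and comparison, the 5 most alike genes, and marker genes; 1 further gene is counted in its list but not reported here. Members and lists were chosen with earlier results of these data known. Of 74 listed pathway symbols 69 matched. Alternatives used DESeq2 1.42.0, limma 3.58.1 on log2(FPKM + 1) or log2(FPKM + 0.1), other scalings and filters, other fits, and each library left out; those for single pathway genes and ratios were added after seeing the data. Ratios were tested with SciPy 1.17.1. Promoters came from RefSeq (GRCm38.p6), transcripts from GENCODE M21. Replicate numbers did not pair the libraries.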

Additional observations from a re-analysis of the deposited data

How the results depend on the processing

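Every one of the 10 genes kept its direction and its call in LPS against saline and in LPS+Tβ4 against saline under all alternatives, except that Nlrc5 did not reach a mean FPKM of 5 and has no value there. In LPS+Tβ4 against LPS the counts moved. Of the 10 genes, 4 were called in the fit reported, 2 with limma on log2(FPKM + 1), 2 with limma on log2(FPKM + 0.1) and 2 without an expression filter, and 0 in a fit of the 6 libraries compared. With each library left out in turn, 1 to 6 were called: 1 without LPS replicate 2 or LPS+Tβ4 replicate 1 or 2, 2 without any saline library and 6 without LPS replicate 3. That last library was the LPS one poor in urothelial and nervous tissue transcripts and richest in proximal tubule ones. Of the pathway genes, 7 were called as reported, 17 by DESeq2 (4 higher, 13 lower), 4 without a filter, 0 in the 6-library fit and 0 to 14 with libraries left out (0 without replicate 2 of either group, 14 without LPS replicate 1). Of all genes, 1025 were called as reported, 2442 by DESeq2, 647 without a filter, 638 at a mean FPKM of at least 5, 3 in the 6-library fit and 68 to 2672 with libraries left out. In LPS against saline 3144 genes were called higher and 3329 lower as reported, and 4884 to 6903 in either direction with libraries left out. In LPS+Tβ4 against saline 2119 to 4544 were called with libraries left out. With a mean FPKM of at least 5, where fewer genes were tested, 3754 were called in LPS against saline and 2268 in LPS+Tβ4 against saline. The cause was not tested, apart from the smaller number of genes tested at that filter (7029).

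The replicate number as a block gave 0 of the 10 genes, 0 pathway genes and 5 genes in all for LPS+Tβ4 against LPS, and changed no call of the 10 against saline. The numbers share no source in the labels, and same-numbered libraries correlated at -0.66 to 0.33 (9 pairs), others at -0.48 to 0.52 (18 pairs).

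Tap1 kept its call in 18 of 20 alternatives (adjusted p = 0.065 in the 6-library fit and 0.063 with the block), Nlrc5 in 14 of 19, Tap2 in 8 of 20 and Psmb10 in 7 of 20. Tapbp was called in 3 of 20 and Psmb9 in 2 of 20, both by DESeq2 (adjusted p = 0.0066 and 0.039). Against TMM, the median of all genes moved by -0.03 to 0.05 with median-of-ratios and upper-quartile scaling. With library totals it moved by 0.15 in LPS against saline, 0.06 in LPS+Tβ4 against LPS and 0.21 in LPS+Tβ4 against saline.

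Signs turned only for changes near 0 that were not called. H2-D1 in LPS+Tβ4 against LPS was 0.04 with upper-quartile scaling, 0.05 with both limma settings, 0.00 at a mean FPKM of at least 5 and 0.01 with the urothelial covariate. With libraries left out it ran from -0.11 to 0.07, with 0.02 without LPS replicate 1, 0.07 without LPS replicate 2 and 0.04 without LPS+Tβ4 replicate 3. H2-K1 was 0.00 as the summed chains. In the same comparison Psmb6 ran from -0.03 (without LPS replicate 1) to 0.25, and H2-T23 from -0.31 to 0.02 (without LPS replicate 2). In LPS against saline Psmb7 was 0.01 with limma and ran from -0.19 to 0.08 (without LPS replicate 1). Uggt1, a folding sensor of the endoplasmic reticulum, was 0.05 and 0.06 with limma and ran from -0.16 to 0.02 (without saline replicate 3), with 0.00 without LPS replicate 3. The log2 difference of the ratio of B2m to the heavy chains was 0.04 with all libraries and ran from -0.09 (without LPS replicate 1; -0.01 without LPS+Tβ4 replicate 1) to 0.15. The other 7 ratios kept their direction in all 7 alternatives. With 3 mice per group, small changes were not detectable.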
